A study of Mus musculus with 14 samples.

Results

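The members described here are 3 genes, Nlrp3, Nfkbiz and Irf5, which were chosen by name from the 9474 genes that the study's culture and marrow expression tables both list. Nlrp3 encodes a cytosolic sensor of the inflammasome, Nfkbiz encodes the nuclear protein IκBζ, and Irf5 encodes a transcription factor of the interferon regulatory factor (IRF) family. RNA was sequenced from 14 mouse macrophage libraries of strain C57BL/6J in 2 experiments. In culture, monocytes from bone marrow were grown for 7 days with the macrophage growth factor CSF1 alone (4 libraries) or with CSF1 and 20 ng/mL of murine IL4 (4 libraries); the growth protocol gives CSF1 as 25 ng/mL and the design text as 20 ng/mL. In marrow, cells positive for the macrophage surface protein F4/80 were sorted 12 days after mice received acute myeloid leukemia (AML) cells, which carried either an empty vector (3 libraries) or an IL4 cDNA (3 libraries). The marrow controls thus also came from leukemic mice, and the IL4 there was made by the transplanted cells at a dose that is not given in the sources used here. Whether the libraries of a group are separate cultures or animals is not stated, and p-values therefore measure only the spread between these libraries, which may be technical.

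Macrophages exposed to microbial products enter a state called classical activation, in which toll-like receptors (TLRs) signal through the adaptor MyD88 to NF-κB and to IRF5. NF-κB raises Nlrp3 and Nfkbiz transcripts; NLRP3 protein then assembles with the adaptor ASC (Pycard) and caspase-1 to mature interleukin-1β, while IκBζ joins NF-κB in the nucleus to switch on a set of secondary response genes. IL4 acts through its receptor and the transcription factor STAT6, and drives the contrasting state called alternative activation, marked in mice by Arg1 and Retnla.

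IL4 acted in both experiments by these markers. Retnla (a secreted resistin-like protein) rose by 13.52 ± 0.32 on the log2 scale in culture and 11.53 ± 0.32 in marrow, and Arg1 (arginase 1) had 0 to 1 reads in the culture control libraries against 1714 to 8497 with IL4, and 0 to 2 against 94 to 486 in marrow. Il4ra, the IL4 receptor chain, was also set as a check. Its changes had opposite signs, -1.13 in culture (limma adjusted p = 0.000211) and 1.07 in marrow (limma adjusted p = 0.00344). Values are the deposited log2 values, which carry a constant per gene and so compare libraries for a gene but not genes with each other. Whole reads recovered from them summed to 556070 to 907477 per library, with medians of 24 to 41 reads per gene. A gene counts as changed at an adjusted p below 0.05 (limma, Benjamini-Hochberg over all 9474 genes).

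The labelled cell type was checked on marker genes, as reads per 1000000 recovered reads summed over each list. The 12 macrophage markers summed to 10100 to 11500 in the culture controls and 5250 to 6880 with IL4, but only 631 to 795 in the marrow controls and 502 to 1170 with IL4. Within the list, 1 marker rose and 8 fell in culture, and 7 rose and 3 fell in marrow. Of all genes, 7.96% rose and 32.6% fell in culture, and 6.7% rose and 11.5% fell in marrow. The median change of the list was -1.42 in culture and 1.61 in marrow, beside -0.36 and -0.06 over all genes. In marrow the complement genes C1qa, C1qb and C1qc rose by 2.77 ± 0.39, 3.44 ± 0.33 and 3.49 ± 0.48, Mertk by 3.90 ± 0.69 and Cd163 by 2.33 ± 0.27. Fcgr1 fell there by 2.70 ± 0.33. Csf1r had 227 to 304 reads in the marrow controls and 65 to 219 with IL4, and Cd68 had 61 to 67 and 17 to 60. The makeup of the macrophage markers thus changed in the libraries in which Nlrp3 and Irf5 fell. Its part in those falls was not tested. Neutrophil markers, of which 6 of 18 were measured, stood at 230 to 341 and 205 to 474 in culture and at 57800 to 67400 and 43600 to 54500 in marrow. In the marrow controls S100a8, S100a9 and Ngp carried most of this sum, with 8842 to 10895, 17587 to 19949 and 9961 to 11274 reads. Mmp8, Mmp9 and Csf3r had 353 to 869, 614 to 1384 and 203 to 312 in those libraries. The marrow libraries, sorted on F4/80, thus held more neutrophil than macrophage marker reads, and the F4/80 transcript itself (Emr1) had 28 to 65 and 37 to 126 reads there against 1511 to 2415 and 745 to 912 in culture. Monocyte markers (6 of 12 measured) summed to 545 to 901 in the culture controls and 50.4 to 97.0 with IL4, and to 1980 to 2450 in the marrow controls and 486 to 591 with IL4. The monocyte receptor Cx3cr1 was at 0 reads in every IL4 library of both experiments, while the controls had 154 to 286 in culture and 79 to 96 in marrow. Of the 6 monocyte markers, 5 fell in culture, where 32.6% of all genes fell, and 4 in marrow, where 11.5% fell. In either experiment 0 of them rose. Spn had 225 to 260 reads in the marrow controls and 209 to 345 with IL4. Summed monocyte marker RNA therefore fell with IL4 as Nlrp3 did in both experiments, Nfkbiz in culture and Irf5 in marrow. Its part in those results was not tested. In these bulk libraries, fewer cells of a type and less RNA per cell cannot be told apart.

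**Figure D1:**
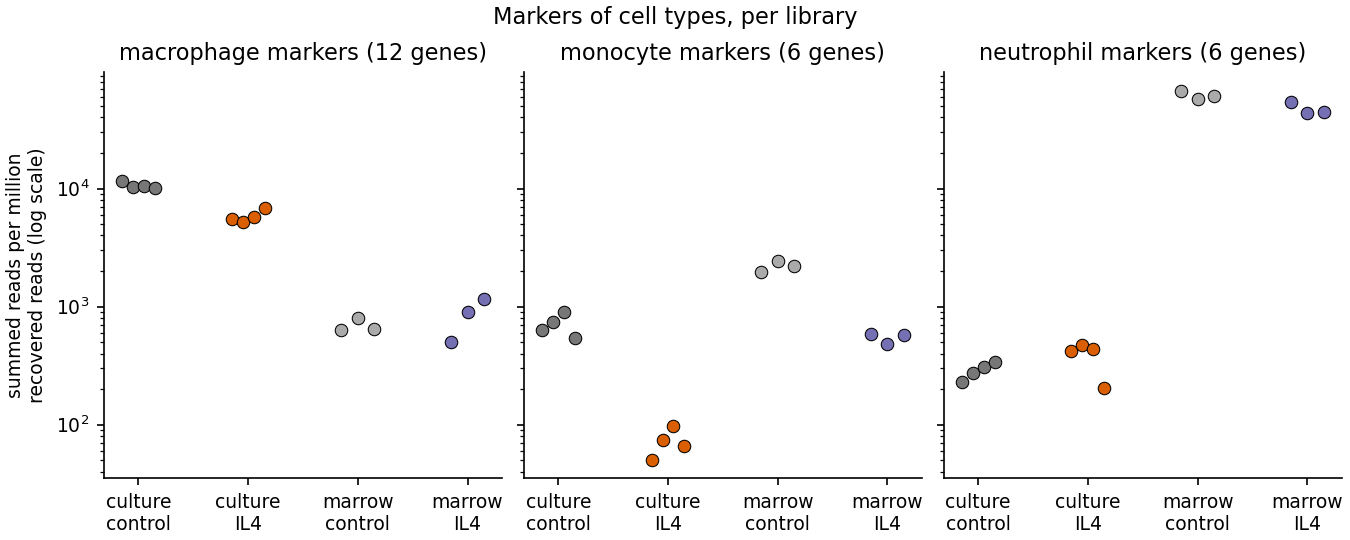
Summed reads of macrophage, monocyte and neutrophil markers per 1000000 recovered reads (log axis), 1 point per library, in the 4 groups. The marrow libraries sit between 43600 and 67400 for neutrophil markers and at 1170 or less for macrophage markers, and monocyte markers are lower with IL4 in both experiments.

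The remaining marker lists were thinly measured. Progenitor and leukemic blast markers (3 of 10) summed to 32.8 to 72.7 and 13.5 to 19.1 in culture without and with IL4, and to 115 to 138 and 216 to 246 in marrow, where Gata2 rose by 2.08 ± 0.18 and Sox4 fell by 1.38 ± 0.19. B cell markers (3 of 10) summed to 149 to 201 and 223 to 283 in culture and to 149 to 168 and 43.1 to 77.2 in marrow. In culture 2 of them rose and 1 fell, Cd79b, from 4 to 10 reads to 1. Of all genes, 7.96% rose and 32.6% fell in culture. Dendritic cell markers (3 of 11) summed to 305 to 747 and 2720 to 3260 in culture, and to 121 to 155 and 79.3 to 117 in marrow. In culture only Itgax rose, from 11 to 372 reads to 1776 to 2670 with IL4. The other 2 fell there, Bst2 from 60 to 150 reads to 21 to 42 and Tcf4 from 94 to 132 to 35 to 40. The single T and NK cell marker measured, Il7r, summed to 91.1 to 401 and 546 to 753 in culture and to 34.7 to 50.8 and 3.45 to 5.4 in marrow. Erythroid markers (2 of 10, Car2 and Tfrc) summed to 58.7 to 158 and 412 to 1160 in culture and to 1380 to 1440 and 181 to 252 in marrow. The part of these markers in the results was not tested either.

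The 3 genes answered IL4 in 3 different ways. Nlrp3 fell in culture and in marrow, Nfkbiz fell in culture, and Irf5 fell in marrow. For each gene the change in marrow differed from that in culture by the test of the difference itself. In culture 2 of 3 members were called, both lower with IL4, where 40.5% of all genes were called, 7.96% higher and 32.6% lower. In marrow 2 of 3 were called, both lower, where 18.2% of all genes were called, 6.7% higher and 11.5% lower. All 3 differed between the experiments, as did 23.1% of all genes, 16.6% upward as Nlrp3 and Nfkbiz and 6.45% downward as Irf5.

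**Figure D2:**
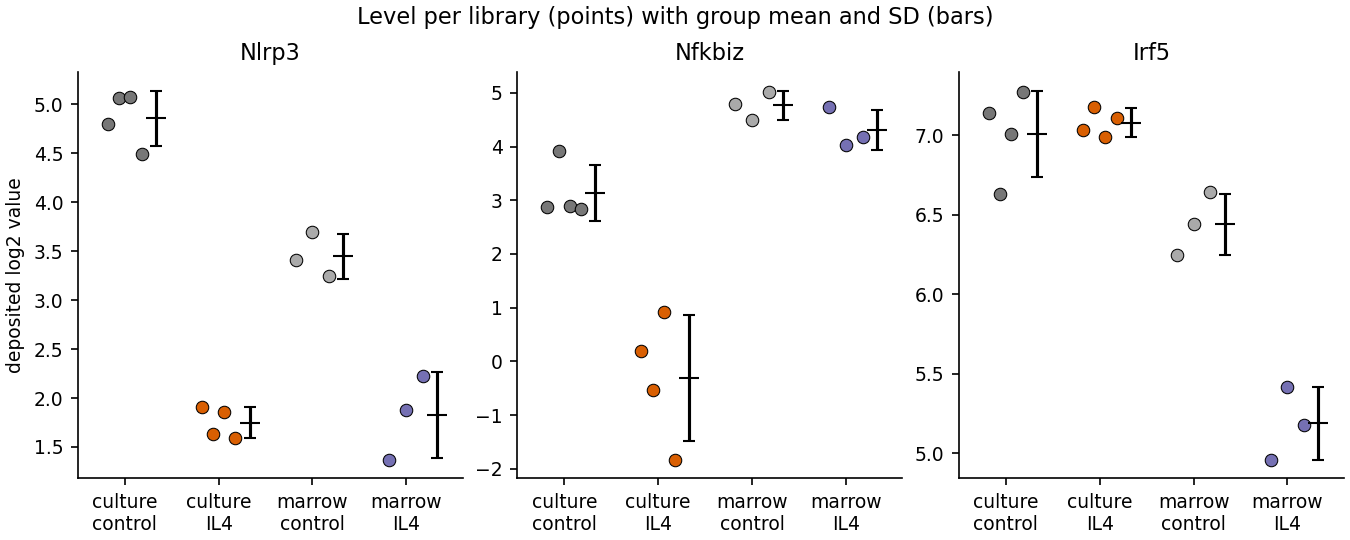
Deposited log2 value of Nlrp3, Nfkbiz and Irf5 in each of the 14 libraries (points) by group, with the group mean and SD beside them; the vertical axes differ between panels and are not comparable between genes. Nlrp3 separates control from IL4 in both experiments, Nfkbiz in culture and Irf5 in marrow.

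Nlrp3 (ENSMUSG00000032691.14) is a protein-coding gene on the plus strand of chromosome 11, from 59541568 to 59566956 in GRCm38. RefSeq (GRCm38.p6) gives it 2 transcription starts. The window of 250 bases before to 50 after the second start is shown to set its base composition beside that of Irf5; 49.3% of its bases are G or C, above 36.5% of the 32544 RefSeq windows of the same length (median 53.0%), and the window of the first start, chr11:59541319-59541618, had 47.3%. No part of it is marked in capitals.
Nlrp3, start 2, chr11:59542436-59542735, plus strand: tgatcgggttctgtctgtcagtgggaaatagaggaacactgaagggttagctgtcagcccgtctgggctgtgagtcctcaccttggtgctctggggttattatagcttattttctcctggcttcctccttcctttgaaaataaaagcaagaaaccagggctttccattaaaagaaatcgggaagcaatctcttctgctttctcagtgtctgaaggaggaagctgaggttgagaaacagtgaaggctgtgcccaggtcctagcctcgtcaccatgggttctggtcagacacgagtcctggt

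In the culture control libraries 1 to 4, the log2 value of Nlrp3 was 4.80, 5.07, 5.08 and 4.49 (93, 77, 80 and 59 reads). With IL4 in culture it was 1.91, 1.63, 1.86 and 1.59 (11, 9, 9 and 7 reads). Every IL4 library lay well below every control, a gap that 30.2% of all genes also showed in this direction. The fall was -3.11 ± 0.20 on the log2 scale (SE, n = 4 per group, 95% interval -3.56 to -2.67, limma adjusted p = 4.84e-06), lower than the change of 98.7% of genes. Summed reads give a control level 9.03 times that with IL4 (exact 95% interval 6.38 to 13.1, counting error only).

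In the marrow control libraries 1 to 3, Nlrp3 stood at 3.41, 3.70 and 3.25 (25, 31 and 24 reads). In the marrow IL4 libraries it stood at 1.37, 1.88 and 2.23 (5, 7 and 14 reads). The groups again did not overlap, as for 22.1% of genes in this direction. The fall was -1.62 ± 0.31 (SE, n = 3 per group, 95% interval -2.33 to -0.92, limma adjusted p = 0.00721), and summed reads give a ratio of 3.01 (1.91 to 4.89). Of all genes, 5.86% fell past the threshold in both experiments, as Nlrp3 did.

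The fall of Nlrp3 was smaller in marrow than in culture. The difference of the changes, marrow minus culture, was 1.49 ± 0.34 (95% interval 0.76 to 2.22, limma adjusted p = 0.00655). By group mean the order was culture control (4.86 ± 0.28, SD, n = 4), marrow control (3.45 ± 0.23, n = 3), marrow IL4 (1.83 ± 0.44, n = 3) and culture IL4 (1.75 ± 0.16, n = 4). The levels with IL4 in the 2 experiments overlapped, and the separation lay between the controls, whose values did not overlap. Levels set across the experiments come from separate tables and are a description only.

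Among the inflammasome genes listed with Nlrp3, 15 of 27 were not past the threshold in culture and 21 of 27 in marrow. Of these 27 measured genes, from 33 listed (sensors, adaptor, caspases, products and regulators), 4 rose and 8 fell in culture with a median change of -0.30, against a median of -0.36 over all genes. That is 44.4% of the list, beside 40.5% of all genes. After centring each library on its median, 4 rose and 3 fell, where 14.4% of all genes rose and 12.7% fell. In marrow 2 rose and 4 fell, 22.2% of the list beside 18.2% of all genes, with a median of -0.08 beside -0.06. The assembly partners of NLRP3 gave no call in either experiment. Pycard, the adaptor ASC, changed by -0.11 ± 0.13 in culture and 0.43 ± 0.16 in marrow. Casp1, the protease that matures interleukin-1β, changed by -0.06 ± 0.14 and -0.11 ± 0.19, and the pore-forming Gsdmd by -0.38 ± 0.17 and 0.11 ± 0.18, its culture change passing with limma-voom (0.0447) and with 2 added to reads (0.0483). Nek7, a kinase that binds NLRP3, changed by -0.30 ± 0.12 and -0.10 ± 0.15, and Casp4, a sensor of lipopolysaccharide, by -0.15 ± 0.23 and 0.11 ± 0.28.

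Other sensors fell as well. In culture Nlrc4, which reports bacterial flagellin, fell by 1.56 ± 0.21 on the log2 scale (limma adjusted p = 0.000405), and Nlrp1b fell by 2.10 ± 0.26 (adjusted p = 0.000237). In marrow Nlrp1a fell by 1.79 ± 0.33 (adjusted p = 0.00612) and Naip6 fell by 1.66 ± 0.26 (adjusted p = 0.0025). Both also fell in culture, by 0.84 ± 0.21 (adjusted p = 0.0108) and 0.65 ± 0.19 (adjusted p = 0.0226), but these calls were lost after centring (0.126 and 0.336), and that of Naip6 also without IL4 library 1 (0.0637), IL4 library 2 (0.0599), control library 1 (0.0522) or control library 4 (0.0501). The changes of Nlrc4 (adjusted p = 0.44), Nlrp1b (0.0887) and Nlrp1a (0.0906) did not pass the test of the difference between the experiments. Nlrp1 and Naip genes are near-identical copies whose reads could have been split in counting. Mefv, the sensor pyrin, rose in culture by 1.44 ± 0.27, and Dfna5, the pore-former gasdermin E, rose in marrow by 0.94 ± 0.18. The calls of Nlrc4, Nlrp1b and Mefv in culture and of Nlrp1a, Naip6 and Dfna5 in marrow held under every alternative tried. Il1rn, the interleukin-1 receptor antagonist, rose in culture by 1.66 ± 0.48 (adjusted p = 0.0194), a call lost without IL4 library 1 (0.0562), IL4 library 2 (0.0564) or control library 3 (0.0549). Txnip, a thioredoxin inhibitor that binds NLRP3, rose by 0.47 ± 0.13 in culture and 0.63 ± 0.16 in marrow. Its culture call was lost without IL4 library 3 (0.0541) or control library 3 (0.0544), and its marrow call with no trend (0.0778) and without IL4 library 1 (0.0736), IL4 library 3 (0.0853), control library 2 (0.09) or control library 3 (0.0753). The interleukins Il1b and Il18 were not analysed here.

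Nfkbiz (ENSMUSG00000035356.17) is a protein-coding gene on the minus strand of chromosome 16, from 55811375 to 55838899. In the culture control libraries 1 to 4 its log2 value was 2.87, 3.91, 2.89 and 2.84 (17, 24, 12 and 13 reads). With IL4 in culture it was 0.20, -0.54, 0.92 and -1.83 (2, 1, 3 and 0 reads). All IL4 libraries lay below all controls, as for 30.2% of all genes. The read numbers with IL4 were near the limit of detection, so the size of the fall is poorly set. The change was -3.44 ± 0.54 (SE, n = 4 per group, 95% interval -4.65 to -2.23, limma adjusted p = 0.000975). Summed over the libraries there were 66 reads in the controls and 6 with IL4, a ratio of 11.6 with an exact 95% interval of 5.04 to 32.7. Control library 2 stood above the other controls, and without it the change was -3.18 (adjusted p = 0.00427). Leaving out IL4 library 4, which had 0 reads, gave -2.94 (adjusted p = 0.000823).

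In marrow Nfkbiz was not called. The control libraries 1 to 3 had 4.80, 4.49 and 5.02 (47, 38 and 59 reads). The IL4 libraries had 4.74, 4.02 and 4.17 (40, 23 and 39 reads). IL4 library 1 lay within the controls, and the groups overlapped. The change of -0.46 ± 0.24 (95% interval -1.0 to 0.09, limma adjusted p = 0.232) was not called. The interval leaves room for a fall of up to 1.0 on the log2 scale, so it does not show that the level was the same. Summed reads give a control level 1.38 times that with IL4 (exact 95% interval 1.07 to 1.8). That interval covers counting error only and not the spread between libraries. The change in marrow exceeded that in culture by 2.99 ± 0.70 (95% interval 1.48 to 4.49, limma adjusted p = 0.00732). By mean the order was marrow control (4.77 ± 0.27, SD, n = 3), marrow IL4 (4.31 ± 0.38, n = 3), culture control (3.13 ± 0.52, n = 4) and culture IL4 (-0.31 ± 1.17, n = 4). Every marrow library was above every culture library, the marrow libraries being those with the neutrophil marker RNA given above, whose part in the Nfkbiz level was not tested.

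**Figure D3:**
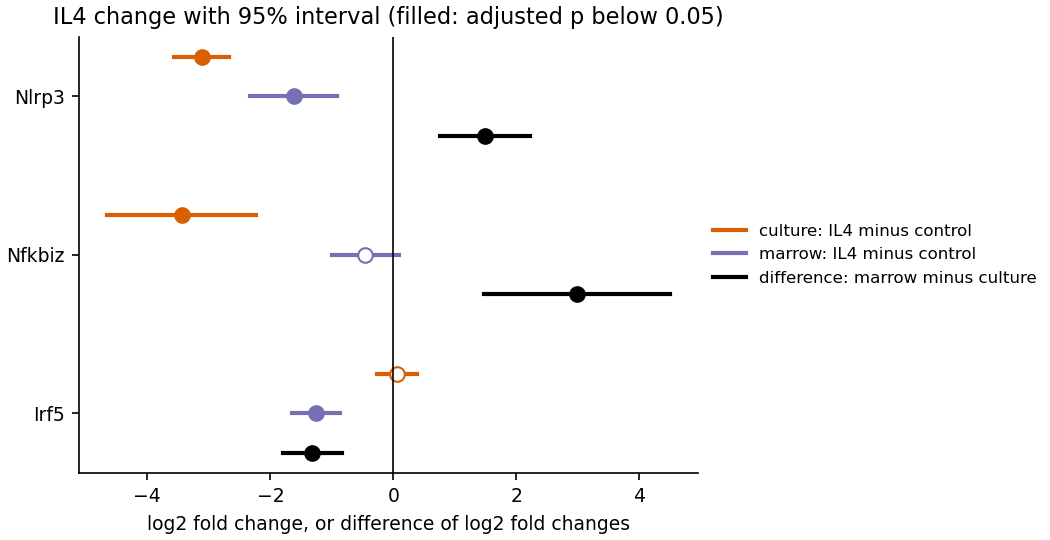
Change with IL4 (log2, IL4 minus control) of the 3 genes in culture and in marrow, and the difference of the changes (marrow minus culture), each with its 95% interval from limma; filled points have an adjusted p below 0.05. The intervals of Nfkbiz in marrow (-1.0 to 0.09) and Irf5 in culture (-0.26 to 0.38) hold 0.

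The NF-κB list holds the subunits, the IκB proteins, the kinases that release them and the feedback inhibitors, and all 24 of its genes were measured. In culture 3 rose and 11 fell, 58.3% of the list beside 40.5% of all genes, with a median of -0.40. After centring 4 rose and 2 fell, where 14.4% of all genes rose and 12.7% fell. In marrow 1 rose and 3 fell, 16.7% beside 18.2% of all genes, with a median of -0.11. Most of the falls in culture were therefore not past the threshold relative to the median of all genes. Nfkbia, the classical inhibitor IκBα and itself an NF-κB target, fell in culture by 1.34 ± 0.30 (limma adjusted p = 0.00592) under every alternative, and changed by -0.05 ± 0.23 in marrow. The inhibitors that rose in culture under every alternative were Tnfaip3 (A20, a ubiquitin-editing enzyme; 1.01 ± 0.23), Tnip3 (a partner of A20; 2.00 ± 0.14) and Otulin (a deubiquitinase; 0.83 ± 0.21). Relb, the subunit of the non-canonical pathway, fell in marrow by 1.76 ± 0.24 (adjusted p = 0.00145). It also fell in culture, by 0.85 ± 0.27 (adjusted p = 0.0288), a call lost after centring (0.213), under quantile normalization (0.188), with limma-voom (0.0516) and without IL4 library 1 (0.0637), IL4 library 3 (0.0673), control library 2 (0.0799) or control library 3 (0.0659). Rela, Rel, Nfkbib and Bcl3 were called in neither experiment. The culture falls of Nfkb1 (-0.61 ± 0.14), Nfkbie (-1.07 ± 0.29) and Tbk1 (-0.56 ± 0.13) were lost after centring, with adjusted p of 0.21, 0.0909 and 0.254.

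Irf5 (ENSMUSG00000029771.12) is a protein-coding gene on the plus strand of chromosome 6, from 29526625 to 29541871. Its last 1045 bases, from 29540827, are shared with Tnpo3 on the other strand, and reads there cannot be told apart without strand. Tnpo3 changed by -0.55 ± 0.16 in culture (limma adjusted p = 0.0204) and -0.22 ± 0.19 in marrow (adjusted p = 0.482). The RefSeq window of Irf5 is shown for its composition: 74.7% of its bases are G or C, above 96.1% of those windows, against 49.3% in the Nlrp3 window above, and it holds 35 CG pairs against 5 there.
Irf5, chr6:29526375-29526674, plus strand: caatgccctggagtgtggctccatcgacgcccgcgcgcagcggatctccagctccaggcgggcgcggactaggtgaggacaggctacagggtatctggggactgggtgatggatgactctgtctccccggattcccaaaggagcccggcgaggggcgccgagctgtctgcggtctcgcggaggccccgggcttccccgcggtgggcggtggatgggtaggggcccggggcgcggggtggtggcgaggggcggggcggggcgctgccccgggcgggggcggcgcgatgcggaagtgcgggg

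In culture Irf5 did not separate the groups. The control libraries 1 to 4 had log2 values of 7.14, 6.63, 7.01 and 7.27 (231, 111, 149 and 199 reads). The IL4 libraries had 7.03, 7.18, 6.99 and 7.11 (195, 217, 161 and 168 reads). Every IL4 value lay within the range of the controls. The change was 0.06 ± 0.14 (SE, n = 4 per group, 95% interval -0.26 to 0.38, limma adjusted p = 0.747), and relative to the median of all genes it was 0.43 (adjusted p = 0.0817). Without control library 2, the lowest control, the change was -0.06 (adjusted p = 0.713).

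In marrow Irf5 fell. The control libraries 1 to 3 had 6.25, 6.44 and 6.64 (89, 102 and 125 reads). The IL4 libraries had 4.96, 5.42 and 5.18 (32, 42 and 54 reads). All IL4 libraries lay below all controls, as for 22.1% of all genes. The change was -1.26 ± 0.17 (SE, n = 3 per group, 95% interval -1.65 to -0.86, limma adjusted p = 0.00153), with a ratio of summed reads of 2.42 (1.96 to 2.99). The difference of the changes was -1.32 ± 0.23 (95% interval -1.80 to -0.83, limma adjusted p = 0.000956), opposite in sign to those of Nlrp3 and Nfkbiz. By mean the order was culture IL4 (7.08 ± 0.09, SD, n = 4), culture control (7.01 ± 0.27, n = 4), marrow control (6.44 ± 0.19, n = 3) and marrow IL4 (5.19 ± 0.23, n = 3). Neighbours in this order overlapped except the last pair.

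Among the 8 measured IRF genes, responses also split between the experiments. In culture 1 rose and 4 fell, 62.5% beside 40.5% of all genes (median -0.62). After centring 2 rose and 3 fell there, where 14.4% of all genes rose and 12.7% fell. In marrow 3 fell, 37.5% beside 18.2% of all genes (median -0.39, also 3 after centring, where 8.92% of all genes fell). Irf4, which works with STAT6 in alternative activation and competes with IRF5 for MyD88, rose in culture by 3.32 ± 0.26 (limma adjusted p = 1.44e-05) and fell in marrow by 1.54 ± 0.18 (adjusted p = 0.000608). The difference was -4.87 ± 0.35 (adjusted p = 1.36e-06). Irf8, a factor of monocyte development, fell in marrow by 2.19 ± 0.28 (adjusted p = 0.00112) and in culture by 0.82 ± 0.18, the culture call being lost after centring (adjusted p = 0.124). Irf7 (-3.58 ± 0.73), Irf1 (-1.42 ± 0.29) and Irf9 (-1.39 ± 0.19), all interferon-responsive, fell in culture under every alternative; in marrow they changed by 0.24 ± 0.30, 0.18 ± 0.25 and -0.53 ± 0.16, with no call, though Irf9 passed with limma-voom (0.0238), with 2 added to reads (0.0228) and without IL4 library 1 (0.0439). Irf2 and Irf3 were not called in either experiment, though in culture Irf2 passed after centring (0.59, adjusted p = 0.0186) and under quantile normalization (0.0285), and Irf3 passed without IL4 library 4 (-0.59, adjusted p = 0.0489).

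Upstream of all 3 genes, the TLR list (receptors, chaperones, adaptors and kinases) had 36 of 39 genes measured. In culture 1 rose and 20 fell, with a median of -0.73 against -0.36 over all genes, and 58.3% of the list was called beside 40.5% of all genes, of which 32.6% fell. After centring 2 rose and 11 fell, where 12.7% of all genes fell. In marrow 1 rose and 8 fell, 25.0% beside 18.2% of all genes (11.5% lower), with a median of -0.21. Tlr7 and Tlr9, endosomal nucleic acid receptors that feed IRF5, were among them. Other endosomal receptors went otherwise. Tlr8 was called in neither experiment (-0.42 in culture and 0.29 in marrow). Tlr3 and Tlr13 fell in culture (-0.96 and -1.02) and were not called in marrow (0.75 and -0.67). Tlr13 passed in marrow with limma-voom (0.0336) and with 2 added to reads (0.027). Tlr7 fell in culture by 1.98 ± 0.17 (limma adjusted p = 2.47e-05) and in marrow by 1.49 ± 0.40 (adjusted p = 0.0335). The marrow call of Tlr7 was lost under quantile normalization (0.0536), with no trend (0.0574), and without IL4 library 2 (0.0852), IL4 library 3 (0.0852), control library 1 (0.0991) or control library 2 (0.118). Tlr9 fell by 3.16 ± 0.67 in culture (adjusted p = 0.00459) and by 2.23 ± 0.39 in marrow (adjusted p = 0.00468). Slc15a4, the transporter that recruits IRF5 to these receptors through the adaptor TASL, fell by 0.85 ± 0.14 in culture (adjusted p = 0.00122) and by 1.15 ± 0.19 in marrow (adjusted p = 0.00334). TASL itself, listed as 5430427O19Rik, fell in culture by 1.89 ± 0.32 (adjusted p = 0.0014) and changed by -0.21 ± 0.39 in marrow. Irf5 itself was not called in the culture libraries in which Tlr7, Tlr9, Slc15a4 and TASL fell. Unc93b1, the chaperone of endosomal TLRs, fell in marrow by 0.74 ± 0.14 (adjusted p = 0.00647).

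At the cell surface, Tlr2, the receptor of bacterial lipopeptides, fell in culture by 4.16 ± 0.44 (limma adjusted p = 8.88e-05). In marrow it fell by 1.0 ± 0.23 (adjusted p = 0.0174), a call lost with no trend (0.0544) and without control library 1 (0.062) or control library 3 (0.0657). The co-receptor Cd14 fell in culture by 1.73 ± 0.21 (adjusted p = 0.000207). Tlr4, the lipopolysaccharide receptor, was not called in either experiment (0.04 ± 0.17 and 0.57 ± 0.28). Ly86, partner of the TLR relative Cd180, fell in both, by 1.90 ± 0.18 and 1.68 ± 0.19, and Cd180 fell by 2.21 ± 0.46 in marrow and by 0.73 ± 0.13 in culture, the culture call being lost after centring (0.0775). Among the signalling proteins, Irak4 and Traf6 were called in neither, Myd88 fell in culture by 0.84 ± 0.23 with the call lost after centring (adjusted p = 0.156), and the inhibitory Irak3 fell by 1.07 ± 0.26 in culture (adjusted p = 0.0089, lost after centring at 0.0601) and by 1.05 ± 0.20 in marrow (adjusted p = 0.00657).

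**Figure D4:**
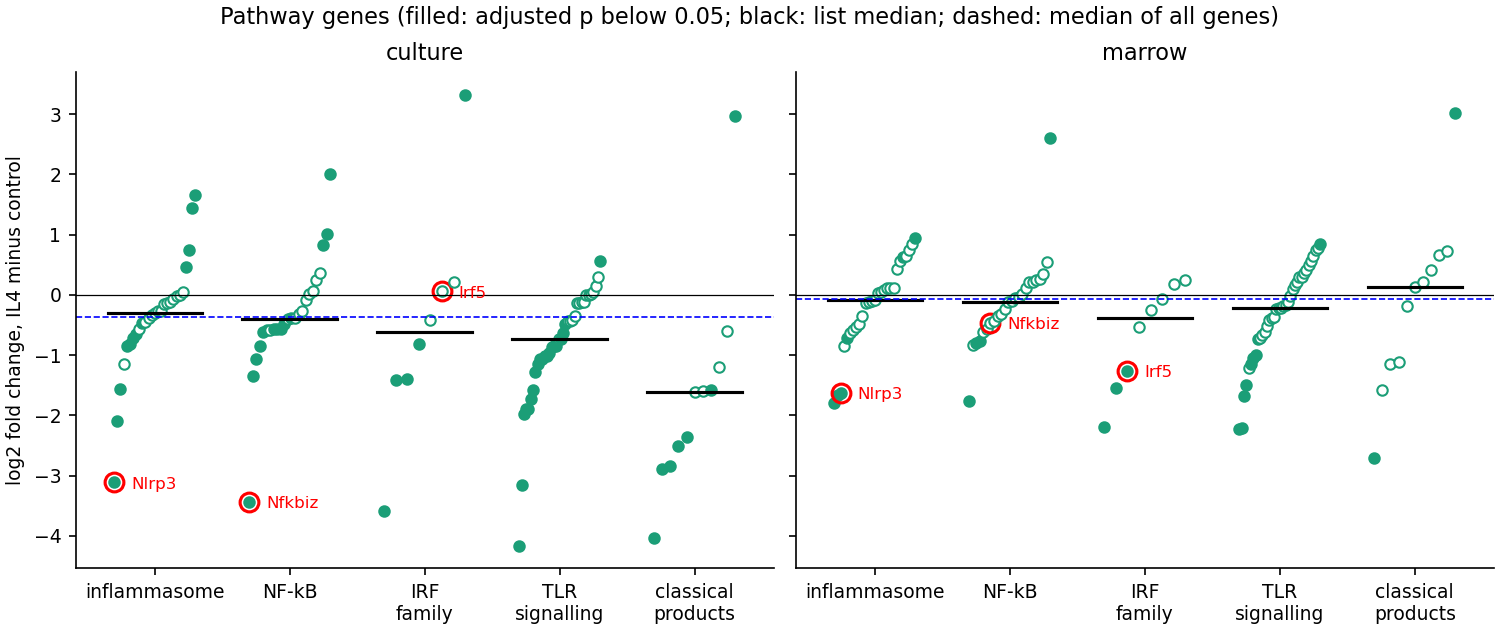
Log2 change with IL4 (IL4 minus control) of each measured gene in the 5 lists, 1 point per gene, in culture and in marrow; filled points have an adjusted p below 0.05, black bars are list medians, the dashed line is the median of all genes (-0.36 in culture, -0.06 in marrow) and red rings mark the 3 members. Nlrp3 is the lowest of its list in culture at -3.11 and Nfkbiz of its own at -3.44, while Irf5 is at 0.06 there and at -1.26 in marrow.

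Downstream, 11 of 33 listed products of classical activation were measured. The full list includes genes known to need IκBζ or IRF5. The 11 did not include Il6, Il12a, Il12b, Il23a, Lcn2, Csf2, Csf3 or Saa3, so the counts say nothing of those genes. In culture 1 rose and 6 fell, 63.6% of the measured list beside 40.5% of all genes, with a median of -1.61. After centring 1 rose and 4 fell, where 14.4% of all genes rose and 12.7% fell. In marrow 1 rose and 1 fell, 18.2% as over all genes, with a median of 0.13. Clec4e, a receptor of mycobacterial glycolipid, fell in culture by 4.04 ± 0.64 (limma adjusted p = 0.000972) and changed by 0.41 ± 0.31 in marrow. The chemokines Ccl3 and Cxcl16 fell in culture by 2.51 ± 0.31 and 1.58 ± 0.17. Slc7a11, the cystine transporter, went the other way and rose by 2.97 ± 0.46 in culture and 3.01 ± 0.51 in marrow. Tnf had a culture change of -2.36 ± 0.75 (adjusted p = 0.0291) that lost its call after centring (0.0742), under quantile normalization (0.144), and without IL4 library 2 (0.0569), control library 1 (0.0806) or control library 2 (0.0626). Ccl2 fell by 2.84 ± 0.88 in culture and 2.71 ± 0.64 in marrow; the culture call was lost after centring (0.0601), under quantile normalization (0.0562) and without IL4 library 3 (0.0567), control library 1 (0.0575) or control library 2 (0.075), and the marrow call without IL4 library 1 (0.0529), IL4 library 3 (0.059), control library 1 (0.0654) or control library 3 (0.0768). Cd86 and Cd40, co-stimulatory proteins, were not called in either, though Cd86 passed in culture with 2 added to reads (-1.05, adjusted p = 0.048). Il6 and Il12b were not analysed here.

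The genes with the pattern closest to each member were taken as the highest Pearson correlation of log2 values over the 14 libraries after subtracting the mean of each table, among 6930 genes. For Nlrp3 they were Trim59 (0.982), Trps1 (0.98) and Vps13c (0.979). For Nfkbiz they were Apobec3 (0.964), Arl2bp (0.963) and Map3k5 (0.962). For Irf5 they were Tifab (0.952), Cd72 (0.948) and Npc2 (0.945). Trim59 fell by 3.42 in culture and 1.62 in marrow, Map3k5 fell by 2.93 in culture, and Cd72 fell by 3.02 in marrow. These correlations describe libraries that share the group differences and the depth of each library, and they carry no test.

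The authors' deposited table lists, for culture, linear folds of 0.359 for Nlrp3, 0.0212 for Nfkbiz and 1.01 for Irf5, with q-values of 0.000249, 0.0493 and 0.74. For marrow the authors' deposited table lists 0.324, 0.729 and 0.419, with q-values of 0.0551, 0.354 and 0.0387. The marrow folds equal those computed here (0.324, 0.729 and 0.419). The culture folds differ from those computed here from the log2 values as they stand (0.115, 0.0921 and 1.04). Over the 8685 genes above 0 in every culture library, which include Nlrp3 and Irf5, the deposited culture folds were matched by taking a second log2 of the log2 values (median gap 4.3e-08 against 0.28 without it). Nfkbiz has culture values below 0, where a second log2 is not defined, and how its deposited fold was made is not known here. The direction of the 3 genes is the same in both. Nlrp3 in marrow is past a threshold of 0.05 by the adjusted p of limma and not by the authors' q-value.

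**Figure D5:**
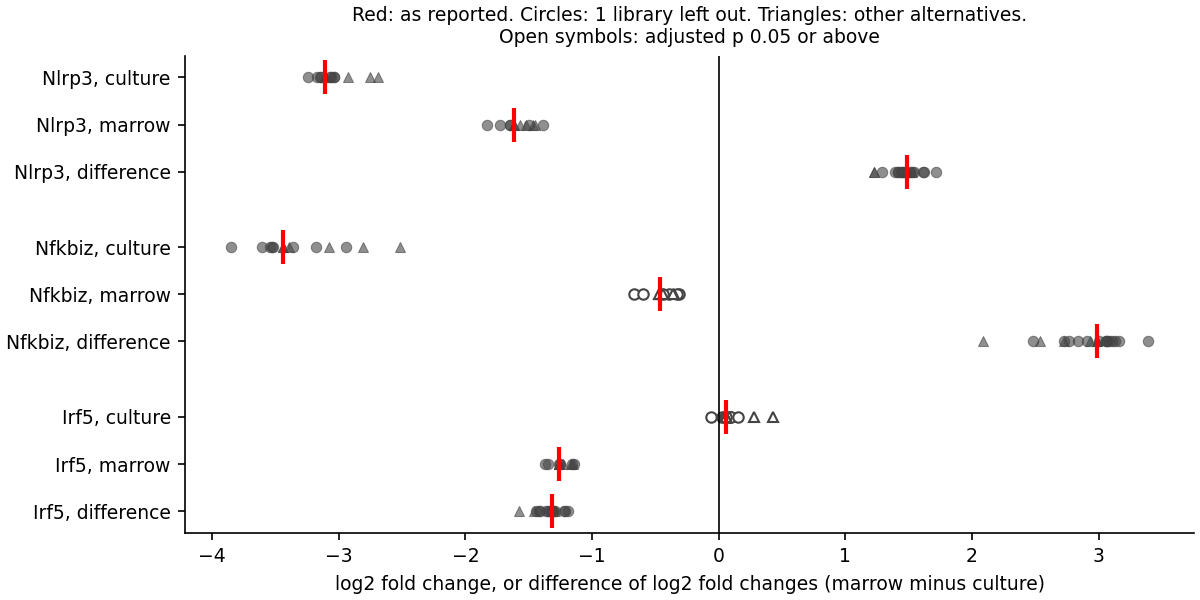
Change of the 3 genes in culture, in marrow and between them (log2 scale) as reported (red) and under every alternative: circles leave out 1 library, triangles change the scaling, the test, the filter or the number added to reads, and open symbols have an adjusted p of 0.05 or above. No point of a called result is open and no called value crosses 0.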

How the data were processed

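The members and gene lists were chosen with earlier results of these data known. Per the labels' protocols, RNeasy Micro columns and the TruSeq RNA v2 kit were used for RNA and libraries. TopHat2 (2.0.13), bcl2fastq and mm10 are named per the submitters' processing notes; how reads were counted, filtered, normalized and assigned to strands is not given. The authors deposited 1 table per experiment with log2 values per library, and their own p-value, q-value and linear fold ratio per gene. The deposited log2 values are those of whole reads plus 0.5, with 1 added constant for each gene and 1 for each library. Solving for both returned whole reads for 9454 of 9474 genes (99.8%; largest residual 0.0005 under 100 reads), and 0.349% to 1.68% of genes had 0 reads in a library. Retnla and Nfkb2 are among the 20 genes without recovered reads. The unused columns of per-sample values numbered 0.

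limma 3.58.1 (R 4.3.3) with a variance trend was fitted within each table (residual degrees of freedom 6 and 4) and over all 14 libraries for the difference of the changes (10), without covariates, two-sided, with Benjamini-Hochberg adjustment over all 9474 genes at 0.05. Intervals cover 95%; those of read ratios are exact and cover counting error only. Alternatives were centring each library on its median, quantile normalization, no trend, leaving out the lowest 25% of mean level, limma-voom on recovered reads, 2 added to reads, the replicate number as a block, and each library left out. Named genes were a set list of pathway genes plus, for each list, up to 4 further called members with the smallest p, the 3 genes most like each member, and Il4ra, Arg1 and Retnla. Gene positions are from GENCODE for GRCm38, and promoter windows are from RefSeq, where 2 of 3 members matched; Nfkbiz did not. The recovery and the limma fits were tested on simulated data. Python 3 scripts drew the figures.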

Additional observations from a re-analysis of the deposited data

Results flagged for a closer look

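In 144 pairs of a gene and a culture group, 9 held a library that stood apart from the other 3 by Dixon's criterion, where chance gives about 1 in 20. Nfkbiz stood high in culture control library 2, at 3.91 against 2.84 to 2.89 in the other controls. Culture control library 4 stood apart for 4 pathway genes: high for Irf4 (4.04 against 2.84 to 2.89), Tnfaip3 (5.99 against 4.83 to 4.99) and Irf2 (6.04 against 5.63 to 5.69), and low for Clec4e (2.27 against 3.85 to 3.92). Culture IL4 library 4 was low for Arg1 (7.67 against 9.60 to 9.68) and high for Retnla (12.41 against 10.87 to 11.07). Cd180 was low in control library 2 (7.68 against 7.93 to 7.96), and Il4ra, the IL4 receptor chain, was low in IL4 library 3 (4.93 against 5.09 to 5.12).

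Among the 72 genes examined, 29 changed differently with IL4 in marrow and in culture by the test of the difference (limma, adjusted over all genes). Some of the 72 were named because they were called, in this test among others, so their share cannot be set beside the 23.1% of all genes. Over the whole measured lists, this test called 18.5% of inflammasome, 20.8% of NF-κB, 75.0% of IRF and 27.8% of TLR genes. It called 18.2% of the classical products. The members were Nlrp3 (1.49), Nfkbiz (2.99) and Irf5 (-1.32), each as marrow minus culture on the log2 scale. The difference was above 0 for 5430427O19Rik (1.68), Casp8 (0.76), Ccl3 (2.64), Cd14 (2.51), Clec4e (4.44), Dfna5 (2.08), Il4ra (2.21), Irf1 (1.60), Irf7 (3.82), Irf9 (0.87), Lyn (0.77), Myd88 (1.34), Nfkb1 (0.73), Nfkbia (1.29), Tlr2 (3.15), Tlr6 (0.95) and Tnip1 (0.63). It was below 0 for Arg1 (-5.51), Cd180 (-1.49), Irf4 (-4.87), Irf8 (-1.37), Mefv (-1.52), Naip6 (-1.01), Retnla (-1.98), Ticam2 (-0.97) and Tnfaip3 (-1.13). Of these 29 calls, 14 held under every alternative. They were those of Nlrp3, Nfkbiz, Irf5, Ccl3, Cd14, Clec4e, Il4ra, Irf1, Irf4, Irf7, Irf8, Myd88, Retnla and Tlr2. The other calls were each lost under at least 1 alternative, that of Casp8 under 15 of 21. Il4ra itself fell by 1.13 ± 0.14 in culture and rose by 1.07 ± 0.18 in marrow.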

How the results depend on the processing

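All 9 results on Nlrp3, Nfkbiz and Irf5 kept their side of the threshold under each alternative that held them, and every called one kept its direction. Leaving out 1 library at a time gave -3.24 to -3.04 for Nlrp3, -3.85 to -2.94 for Nfkbiz and -0.06 to 0.15 for Irf5 in culture, and -1.83 to -1.39, -0.67 to -0.31 and -1.37 to -1.14 in marrow. The number of called genes in marrow (1721) ranged from 1104 to 1460 with 1 library left out, with 1147 without control library 2 and 1104 without control library 3. Centring turned the split of calls in culture from 754 up and 3084 down to 1365 and 1205, in marrow from 635 and 1086 to 895 and 845, and in the difference from 1575 and 611 to 900 and 889. In culture the called inflammasome genes went from 12 to 7 after centring and 7 after quantile normalization, NF-κB genes from 14 to 6 and 8, and TLR genes from 21 to 13 after centring. Called classical products in culture went from 7 to 4 after quantile normalization, and called IRF genes from 5 to 3 and classical products to 3 with the lowest 25% of genes left out, since fewer genes were tested; classical products ranged from 4 to 7 with 1 library left out (4 without control library 2). In marrow the called NF-κB genes went from 4 to 2 without the trend and ranged from 1 to 4 with 1 library left out (2 without IL4 library 1, 1 without control library 2). TLR genes went from 9 to 15 with limma-voom and 14 with 2 added to reads, and classical products from 2 to 0 with the lowest 25% of genes left out and 1 to 3 with 1 library left out (1 without IL4 library 1, IL4 library 3, control library 1 or control library 3). Apart from the filter and the libraries left out, the cause of these moves was not tested. In culture, libraries with the same replicate number correlated at -0.045 to 0.022, and differently numbered ones at -0.0339 to 0.0331. In marrow the same-numbered libraries correlated at 0.0264 to 0.059, above all differently numbered ones (-0.0444 to 0.0116). All these correlations are small, and whether the replicate numbers pair the libraries is not stated. With the number as a block, 3447 genes were called in culture, 1764 in marrow and 1925 in the difference, and no call on the 3 genes changed. Of the pathway genes whose changes in culture or in marrow are given above, the block ended the culture call of Tnf (0.0554) and gave calls for Cd86 (0.0456), Dfna5 (0.037) and Unc93b1 (0.0373) in culture and for Irf9 (0.0441) in marrow; it ended the call of the difference for Casp8 (0.0551), Lyn (0.0857), Nfkbia (0.0556), Tnfaip3 (0.0636) and Tnip1 (0.0976). Depth limits Nfkbiz most, with 0 to 3 reads per culture IL4 library.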
